A study of Homo sapiens with 4 samples.

Results

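Integrins, laminins and their matrix partners were taken as the protein-coding genes whose symbols name an integrin alpha or beta chain or a laminin alpha, beta or gamma chain, together with FN1, CD44, TNC, SPARC, THBS1 and THBS2. The rule gave 44 genes of the 64252 gene IDs in the count table: 26 integrin chains, 12 laminin chains and 6 others. RNA was sequenced from SK-N-BE(2), a long-established human line of neuroblastoma with amplified MYCN. The control cells carried a scramble short hairpin RNA (shScb, labelled as control) and the other cells a hairpin against TTC8 (shTTC8, labelled as TTC8 knockdown), with 2 libraries in each group. TTC8 encodes a subunit of the BBSome, a complex that sorts membrane proteins of the primary cilium. All libraries came from this 1 line, and the sources used here give neither the number of hairpins nor the time of harvest. Whether replicate libraries are separate cultures is not stated in the labels. The p-values therefore rest only on how far these samples differ from each other, and that spread may be technical.

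Integrins are membrane receptors made of an alpha and a beta chain, which bind matrix proteins outside the cell and link them to actin through adaptors inside it. Laminins are trimers of an alpha, a beta and a gamma chain and form the sheet of basement membranes, where nidogens and the proteoglycans perlecan and agrin join them to collagen IV. Fibronectin and tenascin-C are matrix glycoproteins that integrins bind, SPARC and the thrombospondins are secreted proteins that modulate contact between cells and matrix, and CD44 is a receptor for hyaluronan.

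The libraries held 38284663 to 55331449 counts, the shTTC8 libraries being the shallower. TTC8 stood at 196 and 191 CPM (counts per 1e6 of the scaled library size) in shScb and at 29.1 and 30.6 CPM in shTTC8. Over all 19610 tested genes, edgeR's quasi-likelihood test called 16.7% lower and 15.2% higher in shTTC8 at an adjusted p under 0.05, and the counts of genes called on each list below are to be read against these shares. The 8 markers of sympathetic neuroblasts had at least 98.9 CPM in every library, and 6 of them were lower and 1 (ISL1) was higher in shTTC8. Among markers of other cell types, PECAM1 and TEK (endothelium), SOX10 (Schwann cells), CD3E (T cells) and CDH1 (epithelium) had no count in any library, and the fibroblast marker FAP had none in 3 libraries. Of 7 tested fibroblast markers, 6 were lower and 1 (THY1) was higher in shTTC8. The log2 fold changes of shTTC8 over shScb were -3.27 for DCN, -2.63 for LUM, -2.07 for COL1A1 and -0.42 for COL3A1. They were -0.34 for PDGFRA, -0.41 for PDGFRB and 0.19 for THY1. LUM, picked after its values were seen, had 191 and 180 CPM in shScb and 28.6 and 31.2 CPM in shTTC8. The 8 on the fibroblast list summed to 683 to 705 CPM in shScb and 464 to 479 CPM in shTTC8. The endothelial list summed to 1.60 to 2.31 CPM in shScb and 0.894 to 0.927 CPM in shTTC8, with 1 of 2 tested genes lower. That gene, VWF, passed the low-count filter through the shScb libraries alone, and the other tested gene was not called. The Schwann cell and glia list summed to 37.1 to 38.7 and to 14.3 to 15.8 CPM (1 of 5 lower, NGFR), the leukocyte list to 16.6 to 17.0 and to 4.76 to 5.41 CPM (1 of 4 lower, PTPRC), and the epithelial list to 8.26 to 8.41 and to 6.80 to 7.59 CPM (1 of 4 lower, KRT19). No gene of these last 4 lists was called higher. Most tested genes of those 4 lists were not called. The part of the markers that changed in the results below was not tested.

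With 1 exception, the genes of the set that the test called were lower in the cells with the TTC8 hairpin. Of the 44 genes, 32 passed the low-count filter, and the test called 17 of these lower and 1 higher, against 16.7% lower and 15.2% higher over all tested genes. Among tested protein-coding genes with a mean of at least 5 CPM it called 23.5% lower and 21.2% higher. At that level it called 11 of 16 genes of the set lower and 1 higher. The median log2 fold change of the 32 genes was -0.50, against 0.004 for all tested genes. The groups did not overlap in 28 of the 32, against 65.5% of all tested genes. ITGA8 passed the filter through the shScb libraries alone. Without it, 16 of 31 were lower and 1 was higher. The 44 genes together took 0.158% to 0.166% of the counts in shScb and 0.129% in each shTTC8 library. In bulk RNA, fewer cells of a type and less RNA per cell cannot be told apart.

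**Figure D1:**
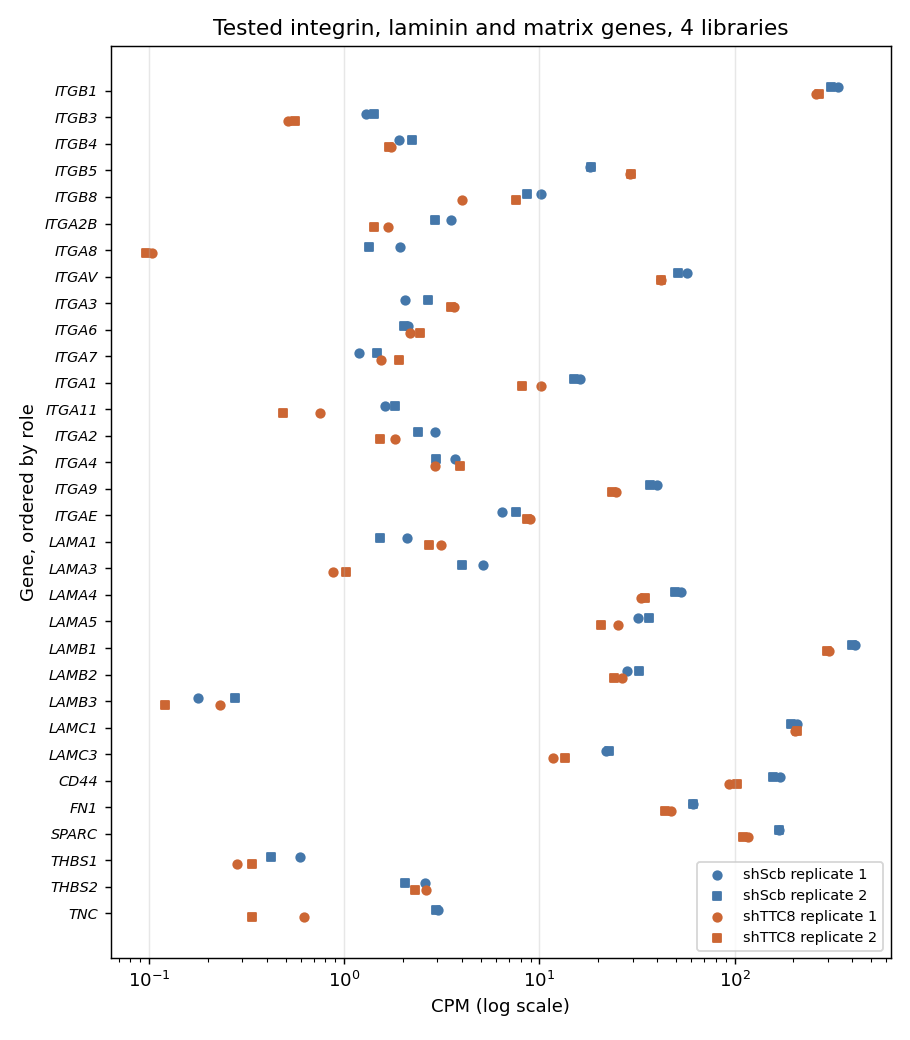
CPM (log scale) of the 32 tested integrin, laminin and matrix genes in the 4 libraries, in the order integrin beta chains, integrin alpha chains, laminin chains and other matrix genes; each symbol is 1 library. In most rows both shTTC8 symbols lie left of both shScb symbols, as for LAMB1 and CD44, while ITGB5 lies to the right and LAMC1 overlaps.

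Among the beta chains, ITGB1 was by far the most abundant and fell slightly, while ITGB5 rose. ITGB1 (ENSG00000150093, chromosome 10, 32900319 to 33005792, GRCh38) pairs with most alpha chains to form receptors for fibronectin, laminin and collagen. It had 338 and 312 CPM in shScb and 260 and 271 CPM in shTTC8. The groups did not overlap, and edgeR put the log2 fold change of shTTC8 over shScb (log2 change from here on) at -0.29 ± 0.06 SE, with an adjusted p of 0.00226. Without shTTC8 replicate 1 the change was -0.27 and the call was lost (edgeR adjusted p = 0.054). The processed pseudogene ITGB1P1 had 417 to 659 counts per library against 10106 to 17102 for ITGB1, and how reads shared by them were counted is unknown.

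ITGB5 (ENSG00000082781, chromosome 3, 124761948 to 124901418), a partner of ITGAV in a vitronectin receptor, had 18.1 and 18.4 CPM in shScb and 28.96 and 29.28 CPM in shTTC8. Both shTTC8 libraries stood above both controls, with replicates close together, and ITGB5 rose by 0.67 ± 0.09 SE on the log2 scale (edgeR adjusted p = 3.98e-05). It was the only gene of the set that the test called higher. ITGB3, another partner of ITGAV and the beta chain of the platelet fibrinogen receptor, went the other way. Its levels were low, at 1.29 and 1.42 CPM in shScb and 0.515 and 0.556 CPM in shTTC8 (log2 change -1.33 ± 0.35 SE, edgeR adjusted p = 0.00852). DESeq2 did not call ITGB3 (adjusted p = 0.0626). ITGB3 shares 51.6% of its exonic positions with ENSG00000259753 on the same strand, which had no count. How reads in the shared part were counted is unknown, so the level of ITGB3 is uncertain.

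ITGB8, a further ITGAV partner, which activates latent TGF-beta, had 10.2 and 8.67 CPM in shScb and 3.99 and 7.56 CPM in shTTC8. All of its shTTC8 values were below the controls, but the pair in shTTC8 differed widely and the gene was not called (log2 change -0.70 ± 0.32 SE, edgeR adjusted p = 0.187). The estimate was -1.23 without shTTC8 replicate 2 (edgeR adjusted p = 6.66e-05) and -0.59 without shScb replicate 1 (edgeR adjusted p = 0.0158), and -0.32 without shTTC8 replicate 1 (edgeR adjusted p = 0.266). DESeq2 (adjusted p = 0.0302) and limma-voom (adjusted p = 0.0422) both called ITGB8 lower. ITGB8 shares 0.647% of its exonic positions with its antisense gene ITGB8-AS1, which had 22.3% of its counts. ITGB4, the beta chain of hemidesmosomes, stood at 1.90 and 2.23 CPM in shScb and 1.72 and 1.69 CPM in shTTC8 and was not called (edgeR adjusted p = 0.466). ITGB6 had no count in any library, which allows at most 0.0552 to 0.0772 CPM (3 counts, for counting error only), and ITGB7 had 3 to 9 counts per library.

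Of the alpha chains that bind the RGD motif of fibronectin and vitronectin, ITGAV and ITGA2B were lower. ITGA8 was lower too, but its direction was set by the low-count filter. ITGAV (ENSG00000138448, chromosome 2, 186590065 to 186680901), the alpha chain of vitronectin receptors, had 57.3 and 51.3 CPM in shScb and 41.8 and 42.2 CPM in shTTC8. The groups did not overlap (log2 change -0.37 ± 0.08 SE, edgeR adjusted p = 0.00206). Scaled by the length of merged exons, the level of ITGB5 relative to that of ITGAV was 0.403 and 0.457 in shScb and 0.883 and 0.885 in shTTC8. That ratio was higher in both shTTC8 libraries than in either control, but an exact permutation test of 2 against 2 cannot go below its p of 0.333.

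ITGA8 (ENSG00000077943, chromosome 10, 15513949 to 15720125), whose product pairs with that of ITGB1 and binds nephronectin, showed the largest fold change among the tested genes of the set. It was scarce, with 97 and 73 counts in the shScb libraries and 4 in each shTTC8 library, or 1.92 and 1.34 against 0.103 and 0.0966 CPM. It passed the low-count filter through the shScb libraries alone, so its shTTC8 level had to be lower and its call cannot serve as support. The fitted log2 change was -3.99 ± 0.46 SE (edgeR adjusted p = 1.23e-05) and ran from -4.23 to -3.72 over the alternative settings. ITGA2B, the alpha chain of the platelet fibrinogen receptor, had 3.52 and 2.91 CPM in shScb and 1.67 and 1.43 CPM in shTTC8 (log2 change -1.05 ± 0.24 SE, edgeR adjusted p = 0.00413). ITGA5, the classical fibronectin receptor chain, was nearly silent in this line. It had 15 and 11 counts in shScb and 2 and 0 in shTTC8 and was not tested.

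None of the 3 laminin-binding alpha chains was called, and all 3 had positive estimates. ITGA3 had 2.06 and 2.67 CPM in shScb and 3.63 and 3.53 CPM in shTTC8 (log2 change 0.60 ± 0.23 SE, edgeR adjusted p = 0.0567). Without shScb replicate 2 its change was 0.80 and passed (edgeR adjusted p = 0.0249), and without shScb replicate 1 it was 0.42 (edgeR adjusted p = 0.283). ITGA6 stood at 2.12 and 2.02 CPM in shScb and 2.16 and 2.44 CPM in shTTC8 (edgeR adjusted p = 0.681). ITGA7, the muscle laminin receptor chain, stood at 1.19 and 1.47 against 1.54 and 1.91 CPM (edgeR adjusted p = 0.361). It shares a few exonic positions with the more abundant gene BLOC1S1, so its value is uncertain. All 3 were expressed at a few CPM at most, and the SEs of their log2 changes ran from 0.23 to 0.29.

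Of the collagen-binding alpha chains, ITGA1 and ITGA11 were lower. ITGA1 (chromosome 5, 52787896 to 52959210) had 16.1 and 14.96 CPM in shScb and 10.2 and 8.14 CPM in shTTC8, with no overlap (log2 change -0.76 ± 0.13 SE, edgeR adjusted p = 3.59e-04). PELO, a gene that shares 2.56% of the exonic positions of ITGA1 and had 233% of its counts, stood at 28.9 to 30.8 CPM in all 4 libraries (log2 fold change 0.005), so that ITGA1 is uncertain in level. ITGA11, a receptor chain of mesenchymal cells for fibrillar collagen, had 1.62 and 1.82 CPM in shScb and 0.747 and 0.483 CPM in shTTC8 (log2 change -1.49 ± 0.34 SE, edgeR adjusted p = 0.00347). ITGA2, the neighbour of ITGA1 on chromosome 5, had 2.93 and 2.39 against 1.83 and 1.52 CPM and narrowly missed the threshold (log2 change -0.67, edgeR adjusted p = 0.0572). It passed without shScb replicate 2 (-0.81, edgeR adjusted p = 0.037), while the change was -0.52 without shScb replicate 1 (edgeR adjusted p = 0.264) and -0.54 without shTTC8 replicate 2 (edgeR adjusted p = 0.257). DESeq2 did not call ITGA2 (adjusted p = 0.186). ITGA10 had at most 8 counts in a library.

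ITGA9 (chromosome 3, 37452115 to 37823514), whose product binds tenascin-C and VCAM1, was the second most abundant alpha chain per length, after ITGAV. It had 40.0 and 36.9 CPM in shScb and 24.7 and 23.5 CPM in shTTC8, so that both treated libraries lay well below the controls. Its log2 change was -0.68 ± 0.09 SE (edgeR adjusted p = 3.14e-05). ITGA4, its close relative and a receptor chain for VCAM1 and fibronectin, overlapped between groups at 3.70 and 2.96 against 2.91 and 3.94 CPM (log2 change 0.04 ± 0.22 SE, edgeR adjusted p = 0.914). Its sign changed to -0.11 without shScb replicate 2 and to -0.19 without shTTC8 replicate 2.

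Chains that mark leukocytes were at or near 0, apart from ITGAE. ITGAM and ITGAX had no count, ITGAD had 3 counts in 1 library, and ITGAL and ITGB2 had 2 to 12 counts per library. ITGAE, which pairs with ITGB7 to bind E-cadherin, had 6.41 and 7.60 CPM in shScb and 8.91 and 8.63 CPM in shTTC8 and was not called (log2 change 0.32 ± 0.15 SE, edgeR adjusted p = 0.109). It overlaps HASPIN, which had 103% of its counts, so the level of ITGAE is uncertain. The leukocyte phosphatase gene PTPRC, in contrast, had 15.8 and 15.03 CPM in shScb and 3.55 and 2.996 CPM in shTTC8.

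**Figure D2:**
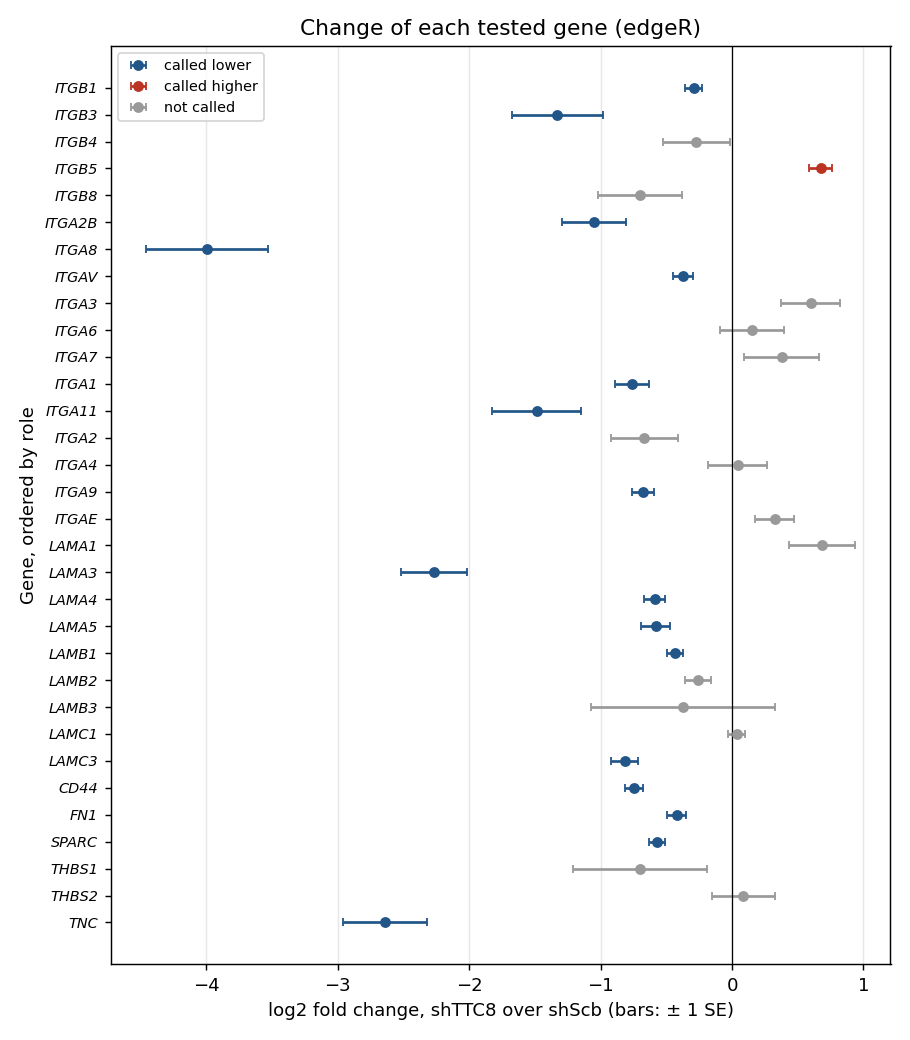
Log2 fold change of shTTC8 over shScb for the 32 tested genes by edgeR, with bars of 1 SE; blue marks genes called lower, red those called higher and grey those not called. ITGA8, TNC and LAMA3 lie farthest left, at -3.99, -2.64 and -2.27, and ITGB5 is the only red point, at 0.67. Of these, ITGA8 passed the low-count filter through the shScb libraries alone.

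The laminin chains showed unequal changes within the trimer: the main beta chain fell and the main gamma chain did not change detectably. LAMB1 (ENSG00000091136, chromosome 7, 107923799 to 108003255, minus strand) was the most abundant gene of the set in CPM. It had 414 and 400 CPM in shScb and 306 and 297 CPM in shTTC8, a log2 change of -0.43 ± 0.06 SE (edgeR adjusted p = 5.82e-05). It shares 0.86% of its exonic positions with DLD, which had 23.4% of its counts and was not called (log2 change -0.07). LAMC1 (ENSG00000135862, chromosome 1, 183023460 to 183145592, plus strand) had 210 and 194 CPM in shScb and 205 and 209 CPM in shTTC8. Its groups overlapped, and its log2 change was 0.03 ± 0.06 SE (edgeR adjusted p = 0.724), or -0.02 without shScb replicate 2. LAMC1 relative to LAMB1, per length, was 0.491 and 0.471 in shScb and 0.649 and 0.681 in shTTC8, higher in both treated libraries (exact permutation p = 0.333, the smallest that 2 against 2 allows).

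Since the products of LAMB1 and LAMC1 join in the same trimers while their transcripts moved differently, their upstream sequences are shown (RefSeq, GRCh38.p14, gene strand). Each window starts 250 bases before the RefSeq start and stops before any base that GENCODE counts as transcribed, which leaves 156 bases for LAMB1 (chr7:108003256-108003411, minus strand) and 250 for LAMC1 (chr1:183023170-183023419, plus strand). Capitals mark GGGCGG on either strand (CCGCCC on the strand shown), the GC box core.
LAMB1: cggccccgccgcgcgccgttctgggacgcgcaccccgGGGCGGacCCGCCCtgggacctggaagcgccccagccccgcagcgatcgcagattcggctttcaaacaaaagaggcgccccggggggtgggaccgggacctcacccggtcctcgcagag
LAMC1: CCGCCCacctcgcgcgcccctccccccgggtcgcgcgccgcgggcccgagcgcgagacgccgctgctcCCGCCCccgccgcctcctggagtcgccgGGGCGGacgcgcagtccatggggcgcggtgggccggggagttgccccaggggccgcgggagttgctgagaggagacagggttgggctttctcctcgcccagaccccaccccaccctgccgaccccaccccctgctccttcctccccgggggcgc
The LAMB1 window held 2 matches and was 75% G or C, and the LAMC1 window held 3 and was 79.6% G or C. RefSeq upstream windows were found for 32 of the 44 genes, and 18 of these 32 had the motif in at least 1 window of 250 bases, against 42.6% of all 35116 windows. Some genes have several starts and so several windows, and the 32 genes had 39 windows. A count of genes and a share of windows are therefore not like measures, and a match is only a run of letters.

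Of the 4 tested laminin alpha chains, which carry the main sites that cells bind, 3 were lower and LAMA1 was not called. LAMA4 (chromosome 6, 112108760 to 112254939), the alpha chain typical of vessels and mesenchyme, had 53.0 and 49.5 CPM in shScb and 33.3 and 34.8 CPM in shTTC8 (log2 change -0.59 ± 0.08 SE, edgeR adjusted p = 4.85e-05). LAMA5 had 32.1 and 36.6 CPM in shScb and 25.3 and 20.6 CPM in shTTC8 (log2 change -0.58 ± 0.11 SE, edgeR adjusted p = 9.87e-04). In both genes the groups stood apart. LAMA5 shares 1.71% of its exonic positions with ADRM1 on the other strand, which had 353% of its counts. ADRM1 itself rose, by 0.51 on the log2 scale (edgeR adjusted p = 1.19e-04).

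LAMA3 (ENSG00000053747, chromosome 18, 23689443 to 23956222), an epithelial laminin chain, fell most among the tested laminin chains. It went from 5.12 and 4.01 CPM in shScb to 0.875 and 1.01 CPM in shTTC8 (log2 change -2.27 ± 0.25 SE, edgeR adjusted p = 7.58e-06). Its partner LAMB3 was hardly expressed. It had 5 to 15 counts per library (edgeR adjusted p = 0.736; log2 fold change -0.37, or 0.03 without shTTC8 replicate 2). LAMA1, the chain of early embryonic basement membranes, went the other way, at 2.10 and 1.53 CPM in shScb and 3.12 and 2.71 CPM in shTTC8, but just missed the threshold (log2 change 0.68 ± 0.25 SE, edgeR adjusted p = 0.0513). Without shScb replicate 1 it passed at 0.93 (edgeR adjusted p = 0.0194). Its change was 0.47 without shScb replicate 2 (edgeR adjusted p = 0.254) and 0.58 without shTTC8 replicate 1 (edgeR adjusted p = 0.229), and DESeq2 did not call LAMA1 (adjusted p = 0.176). LAMA2 had 7 to 17 counts per library and was not tested.

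LAMC3 (chromosome 9, 131009082 to 131094473), a less widespread gamma chain, had 21.8 and 22.6 CPM in shScb and 11.7 and 13.5 CPM in shTTC8. The controls lay close together and well above both treated libraries (log2 change -0.82 ± 0.10 SE, edgeR adjusted p = 3.18e-05). LAMB2, the beta chain of neuromuscular and kidney basement membranes, had 28.2 and 32.4 against 26.6 and 24.1 CPM (log2 change -0.26 ± 0.10 SE, edgeR adjusted p = 0.0531). It was called without shScb replicate 1 (-0.36, edgeR adjusted p = 0.0018), while its change was -0.16 without shScb replicate 2 (edgeR adjusted p = 0.259) and -0.18 without shTTC8 replicate 2 (edgeR adjusted p = 0.353). Its pseudogene LAMB2P1 had 13 to 32 counts per library. LAMB4, which lies next to LAMB1, had 8 and 11 counts in shScb and none in shTTC8, too few to test.

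**Figure D3:**
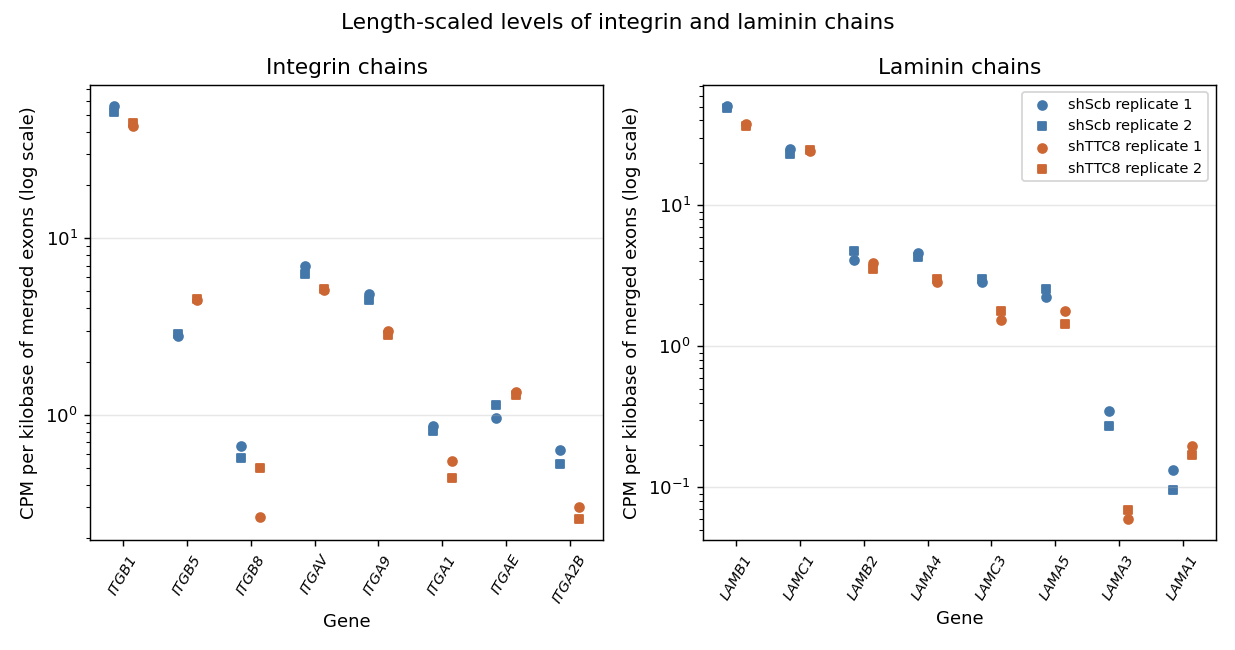
Levels as CPM per kilobase of merged exons (log scale) of 8 integrin chains (left) and 8 laminin chains (right) in the 4 libraries; each symbol is 1 library. ITGB1, LAMB1 and LAMC1 lie far above the other chains of their families in every library, and LAMC1 is nearly level between groups.

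Length-scaled levels put the families in order. Here the unit is CPM per kilobase of merged GENCODE exons, which understates genes with many alternative exons. Among beta chains ITGB1 stood at 54.1 ± 3.05 in shScb and 44.2 ± 1.28 in shTTC8 (SD, n = 2), and ITGB5 at 2.83 ± 0.0325 and 4.52 ± 0.0346. The alpha chains came far below ITGB1, with ITGAV at 6.61 ± 0.513 and 5.11 ± 0.0341 and ITGA9 at 4.65 ± 0.260 and 2.91 ± 0.103. All 18 alpha chains summed to 16.3 and 15.1 in shScb and 11.9 and 11.8 in shTTC8. All 8 beta chains summed to 60.4 and 56.1 in shScb and 48.5 and 50.5 in shTTC8. For laminins, alpha chains were the scarcest, with sums of 7.32 and 7.22 in shScb and 4.92 and 4.73 in shTTC8. Beta chains summed to 55.1 and 53.9 and then 41.5 and 40.0, and gamma chains to 27.9 and 26.1 and then 26.0 and 26.7. Within the laminin order, LAMB1 and LAMC1 led in both groups, while LAMB2 (4.42 ± 0.429) and LAMA4 (4.43 ± 0.214) did not differ beyond their spread in shScb.

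Of the other matrix genes, CD44, SPARC, FN1 and TNC fell and the thrombospondin genes were not called. CD44 (ENSG00000026508, chromosome 11, 35138870 to 35232402), the hyaluronan receptor, had 170.5 and 158 CPM in shScb and 93.1 and 102 CPM in shTTC8. These groups were far apart relative to their spread, and its adjusted p was the smallest in the set (log2 change -0.75 ± 0.07 SE, edgeR adjusted p = 1.07e-06). Gene counts do not show which CD44 splice forms were present. SPARC (ENSG00000113140, chromosome 5, 151661096 to 151687165), a secreted collagen-binding protein, had 169 and 168 CPM in shScb and 117 and 111 CPM in shTTC8 (log2 change -0.57 ± 0.06 SE, edgeR adjusted p = 5.23e-06). FN1 (ENSG00000115414, chromosome 2, 215360440 to 215436172), fibronectin, had 61.0 and 61.5 CPM in shScb and 47.4 and 44.1 CPM in shTTC8 (log2 change -0.42 ± 0.07 SE, edgeR adjusted p = 4.16e-04). In SPARC and FN1 alike, the controls were almost equal and both treated libraries lay below them.

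TNC (ENSG00000041982, chromosome 9, 115019578 to 115118257), a glycoprotein of embryonic and injured tissue, fell to 0.16 of its control level. It had 3.03 and 2.94 CPM in shScb, or 153 and 160 counts, and 0.618 and 0.338 CPM in shTTC8, or 24 and 14 counts (log2 change -2.64 ± 0.32 SE, edgeR adjusted p = 1.97e-05). THBS1, an inhibitor of angiogenesis, was scarce at 0.593 and 0.423 CPM in shScb and 0.283 and 0.338 CPM in shTTC8 (edgeR adjusted p = 0.335). It overlaps FSIP1, which had 87.2% of its counts. THBS2 overlapped between groups at 2.59 and 2.04 against 2.63 and 2.30 CPM (log2 change 0.09 ± 0.24 SE, edgeR adjusted p = 0.827). Its sign turned without shScb replicate 2 (-0.08) and without shTTC8 replicate 1 (-0.01).

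Partners of these genes were read from 4 lists. Of 20 tested basement membrane and laminin partners, 11 were lower and 3 higher (median log2 fold change -0.35). Over all tested genes, 16.7% were lower and 15.2% higher, with a median of 0.004. Over tested protein-coding genes, 20.6% were lower and 18.6% higher. The number of partners higher is near these shares. NID1, nidogen, which binds the laminin gamma chain, had 93.3 and 88.0 CPM in shScb and 41.1 and 36.6 CPM in shTTC8 (log2 change -1.22, edgeR adjusted p = 3.62e-08). Per length, NID1 relative to LAMC1 was 0.637 and 0.649 in shScb and 0.288 and 0.251 in shTTC8. AGRN, the proteoglycan agrin that clusters acetylcholine receptors at nerve endings, went against the list, with 22.3 and 23.4 CPM in shScb and 65.8 and 56.2 CPM in shTTC8 (log2 change 1.42 ± 0.09 SE, edgeR adjusted p = 4.10e-08). The syndecan gene SDC2 fell by 1.16 on the log2 scale, from 37.1 ± 0.549 to 16.7 ± 1.44 CPM (SD, n = 2). The tetraspanin gene CD9, whose product associates with integrins in the membrane, fell from 43.6 ± 0.918 to 8.91 ± 2.19 CPM (SD, n = 2).

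All tested genes had 16.7% lower and 15.2% higher, and tested protein-coding genes had 20.6% lower and 18.6% higher. Integrin adaptors and focal adhesion genes gave 13 lower and 3 higher of 30 tested, with a median of -0.10. Without shTTC8 replicate 2, 8 of them were lower. The tensin gene TNS1 fell from 54.96 ± 1.36 to 24.3 ± 2.61 CPM (SD, n = 2), a log2 change of -1.18, and PARVA, a partner of integrin-linked kinase, by 0.64. NEDD9, a docking protein, fell from 5.90 ± 0.613 to 1.83 ± 0.0649 CPM (SD, n = 2). VCL, vinculin, fell by 0.46, but overlaps AP3M1, which had 129% of its counts. The 3 higher genes were BCAR1, SRC and VASP, named after their values were seen. BCAR1, which belongs to the same docking protein family as NEDD9, stood at 85.7 and 92.2 CPM in shScb and 124 and 114 CPM in shTTC8.

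**Figure D4:**
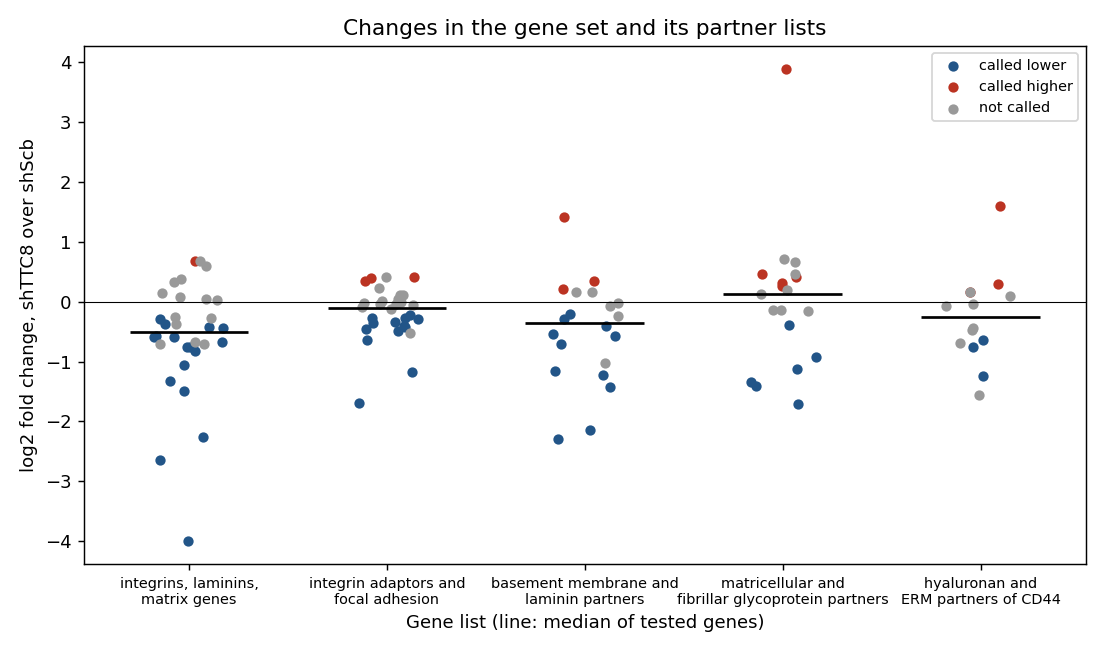
Log2 fold change of shTTC8 over shScb for the tested genes of the set and of the 4 partner lists; each point is 1 gene, colored by its edgeR call, and the line is the median. The median is -0.50 for the set, -0.10 for integrin adaptors, -0.35 for basement membrane partners, 0.14 for matricellular partners and -0.25 for hyaluronan and ERM partners.

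Of 19 tested matricellular and fibrillar glycoprotein partners, 6 were lower and 5 higher (median 0.14). Tested protein-coding genes also went both ways, with 20.6% lower and 18.6% higher. Without shTTC8 replicate 1, 3 were higher. The SPARC relatives that were called went in different directions. SPOCK1, a testican proteoglycan, had 60.8 and 58.3 CPM in shScb and 17.9 and 18.7 CPM in shTTC8 (log2 change -1.70, edgeR adjusted p = 3.33e-09). SPARCL1 fell from 34.5 ± 0.239 to 18.1 ± 0.215 CPM (SD, n = 2). SPOCK2, an abundant testican named after its values were seen, rose from 65.3 and 74.5 CPM to 95.98 and 97.7 CPM (log2 change 0.47, edgeR adjusted p = 1.49e-04). SPOCK3 had 0.119 and 0.166 CPM in shScb and 2.39 and 1.88 CPM in shTTC8. It passed the low-count filter through shTTC8 alone, so it had to differ, and without it 6 of 18 were lower and 4 higher. TGM2, which cross-links matrix proteins, changed by -1.42 (SE 0.18), but overlaps RPRD1B, which had 580% of its counts.

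Hyaluronan and ERM partners of CD44 gave 3 lower and 3 higher of 14 tested (median -0.25), shares near those of all tested protein-coding genes (20.6% lower and 18.6% higher). Without either shTTC8 library in turn, 1 was higher. VCAN, the hyaluronan-binding proteoglycan versican, had 340 and 315 CPM in shScb and 194 and 192 CPM in shTTC8 (log2 change -0.76, edgeR adjusted p = 3.75e-07). HMMR, a hyaluronan receptor that is also a spindle protein, fell by 0.64. The hyaluronan synthase genes moved apart. HAS2 had 4.45 and 3.20 CPM in shScb and 1.73 and 1.52 CPM in shTTC8, and HAS3 had 1.246 and 1.343 CPM in shScb and 3.04 and 4.86 CPM in shTTC8. HAS3 is uncertain, since it shares 6.9% of its exonic positions with the far more abundant CHTF8. Among the ERM genes, which tie CD44 to actin, all named after their values were seen, EZR and RDX overlapped between groups and MSN rose by 0.17 (edgeR adjusted p = 0.0426).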

How the data were processed

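The authors deposited 1 table of raw gene counts, without normalization. The submitters' processing notes list HISAT2 2.2.0 and hg38. The read counter and the annotation release are not named in the sources used here. The TruSeq kit named in the labels' protocols does not mark strand, so overlapping genes cannot be told apart by strand. Symbols came from a gene name table, and gene types, positions and merged exon lengths from GENCODE 29 (GRCh38). Counts were analysed with edgeR 4.0.16 in R 4.3.3: filterByExpr, TMM, robust quasi-likelihood test, two-sided, with p-values adjusted by Benjamini-Hochberg over the 19610 genes tested and a threshold of 0.05. SE is the log2 change divided by the root of the F statistic. Alternatives included DESeq2 1.42.0 and limma-voom (limma 3.58.1). Members and lists were chosen with earlier results of these data known. By rule, library values are given for members called or with a mean of at least 5 CPM, and up to 4 called genes per partner list are named by smallest p. Library values of other members, and the further partner genes BCAR1, SRC, VASP, SPOCK2, EZR, RDX and MSN, were added after their values were seen. Ratios were compared with exact permutation tests (scipy 1.17.1). The values of 1 untested gene of the set are not reported here.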

Additional observations from a re-analysis of the deposited data

How the results depend on the processing

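The number of genes of the set called lower, 17, was 17 to 19 in the alternatives that kept all 4 libraries. These were not always the same genes, since DESeq2 lost ITGB3 and added ITGB8. With no low-count filter 18 were lower, and the added gene was among the 12 that the main fit did not test. That gene had too few counts to pass the main filter. The number called higher, 1, was 3 with library size alone, 3 with at least 1 CPM in 2 libraries and 3 with the replicate number as a block, and 1 to 2 with a library left out. Adaptor genes called lower, 13, were 8 to 13 with a library left out. Matricellular partners called higher, 5, were 3 to 6, and hyaluronan partners called higher, 3, were 1 to 3. Signs turned, in genes that were not called, for THBS2 (-0.076 to 0.265 with a library left out), ITGA4 (-0.19 to 0.24), LAMC1 (-0.022 to 0.088) and LAMB3 (-0.902 to 0.028). The cause was not tested. Of the 18 called genes, 16 kept their call and direction in every alternative; ITGB1 and ITGB3 did not. Same-numbered libraries deviated together only weakly (r = 0.0317 over 19610 genes), so the numbers are not known to pair libraries. With the replicate block 19 genes of the set were lower, ITGB8 and LAMB2 being added, and 3 were higher, LAMA1 and ITGA3 being added. Of the 16 tested genes of the set under 5 CPM, 6 were called lower and 10 were not called. What part depth played in the missed calls was not tested.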
